A study of Caenorhabditis elegans with 3 samples.

Results

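The regions described here are the 498 strongest places on the 5 autosomes of Caenorhabditis elegans where EGL-27 was found at the promoter of a protein-coding gene in first-stage (L1) larvae. They were chosen from the authors' list for the 3 replicates together, a list of 30000 regions sorted by the deposited signal value, the authors' own measure of a region's height. The authors named this list as holding both peaks and background. Its regions below the 1500 highest, called weaker here, can therefore be background and are not read as binding sites. A member is one of the 1500 highest regions, lies on an autosome and has its summit between 1000 bp upstream and 200 bp downstream of an annotated gene start. The members make up 33.2% of those 1500 regions. The pooled signal therefore chose the members, and it is given below only as a description.

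The study used chromatin immunoprecipitation with sequencing (ChIP-seq) on a single group of larvae, in 3 biological replicates, without any other condition. The animals were whole L1 larvae of strain OP177 (unc-119(ed3) III; wgIs177), of pooled sex and unknown age. The strain carries an integrated transgene for EGL-27 with GFP and FLAG fused at its C-terminus, and all 3 replicates are of this strain. The labels name no mutation of the endogenous egl-27 gene and no tissue, so signal from different tissues of the larva is summed. They give egl-27 as the antibody target. Read depth is unknown because the lists hold no read counts. No unrelated factor or untagged strain was analysed here, so how many of these promoters would also appear in such a list was not tested.

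EGL-27 has a zinc finger of the GATA type and resembles the MTA proteins found in the NuRD complex, which removes acetyl groups from histones and remodels nucleosomes. In the worm it is known for roles in embryonic patterning, in the asymmetric divisions of Wnt-responsive cells and in the identity of the seam cells of the skin. Worm promoters are compact, many genes lie in operons, and neighbouring genes are often transcribed away from each other from 1 shared stretch. Most worm transcripts are trans-spliced, which removes their original start, so an annotated gene start can lie downstream of the place where transcription begins.

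The sequences of 12 members show the words that recurred under the summits. They were picked from the named members: 10 because they hold such words and the last 2, at iff-2 and din-1, because they hold none, so how many of the 12 hold a word says nothing of its frequency. Each is the 121 bp centred on the summit, from the RefSeq genome of build WBcel235 (ce11), written 5′ to 3′ on the strand of the nearest gene, and none overlaps an annotated exon. Capitals mark 6 words wherever they occur, in this or in reverse complement form. They are the repeat GAGAGA, the word CTGCGTC, the word TACACT, the word CGCTCCA, and the words GGCCTA and CTGAGTA, which recurred at ribosomal protein genes. The first sequence lies at cdc-48.1, the next 5 at ribosomal protein genes and the others at other genes.
cdc-48.1, chrII:10563510-10563630, minus strand: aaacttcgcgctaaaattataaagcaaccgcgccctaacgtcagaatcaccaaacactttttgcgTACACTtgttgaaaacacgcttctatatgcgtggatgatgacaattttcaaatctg
Y17G9B.5 and rpl-20, chrIV:4750005-4750125, plus strand: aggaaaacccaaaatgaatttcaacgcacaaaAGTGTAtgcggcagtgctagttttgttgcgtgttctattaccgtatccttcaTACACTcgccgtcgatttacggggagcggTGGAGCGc
rpl-15 and K11H12.8, chrIV:654862-654982, minus strand: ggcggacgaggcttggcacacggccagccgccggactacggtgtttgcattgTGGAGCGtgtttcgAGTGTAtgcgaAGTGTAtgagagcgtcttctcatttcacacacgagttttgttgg
rpl-3, chrIII:3867523-3867643, plus strand: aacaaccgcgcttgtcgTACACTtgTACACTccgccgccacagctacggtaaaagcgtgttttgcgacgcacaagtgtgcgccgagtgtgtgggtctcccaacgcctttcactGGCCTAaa
rps-1 and ifet-1, chrIII:4475610-4475730, plus strand: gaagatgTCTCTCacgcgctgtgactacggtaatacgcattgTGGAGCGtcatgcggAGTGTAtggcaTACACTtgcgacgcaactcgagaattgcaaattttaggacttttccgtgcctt
rpl-6, chrIII:7208036-7208156, plus strand: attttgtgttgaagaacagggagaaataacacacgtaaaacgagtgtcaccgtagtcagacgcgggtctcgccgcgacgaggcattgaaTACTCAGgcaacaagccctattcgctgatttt
K12H4.5, chrIII:8043927-8044047, plus strand: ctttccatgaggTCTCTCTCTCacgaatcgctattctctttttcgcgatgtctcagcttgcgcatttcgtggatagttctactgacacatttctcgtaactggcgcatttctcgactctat
ogt-1, chrIII:7153928-7154048, minus strand: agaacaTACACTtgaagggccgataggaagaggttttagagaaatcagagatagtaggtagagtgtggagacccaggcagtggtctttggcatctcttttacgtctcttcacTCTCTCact
dmd-7, chrV:6246628-6246748, plus strand: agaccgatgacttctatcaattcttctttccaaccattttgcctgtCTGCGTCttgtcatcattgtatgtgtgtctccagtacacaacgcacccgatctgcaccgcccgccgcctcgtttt
nhr-58, chrV:532137-532257, plus strand: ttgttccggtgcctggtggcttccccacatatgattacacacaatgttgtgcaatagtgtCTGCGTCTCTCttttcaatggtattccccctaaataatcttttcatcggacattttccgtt
iff-2 and F54C9.14, chrII:8561373-8561493, minus strand: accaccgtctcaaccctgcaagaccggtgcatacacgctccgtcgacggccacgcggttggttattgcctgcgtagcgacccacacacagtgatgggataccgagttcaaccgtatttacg
din-1, chrII:11634304-11634424, minus strand: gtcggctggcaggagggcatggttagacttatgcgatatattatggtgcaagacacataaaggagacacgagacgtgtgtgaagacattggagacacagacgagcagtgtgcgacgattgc

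The differences in word shares between sets of regions were not tested, because regions of the same libraries are not replicates. GAGAGA lay within 100 bp of the summit in 225 of 498 members (45.2%, 95% exact binomial interval 40.7 to 49.7). It lay in 18.3% of 5879 weaker autosomal promoter regions of the same list, in 13.7% of windows centred 200 bp upstream of all 17242 autosomal genes, and in 11.4% of windows 500 bp away from the members' summits. CTGCGTC was held by 99 members (19.9%, 16.5 to 23.7), against 4.51%, 3.18% and 1.81% of the same 3 sets. Both words were held by 63 members and at least 1 of them by 261. The nearest GAGAGA was a median of 34.0 bp from the summit. Strong autosomal regions outside promoter windows held GAGAGA in 150 of 268 in introns and in 63.3% of those between genes, and strong promoter regions on the X chromosome at 47.2%. CTGCGTC was in 59 of the 268 in introns, in 19.6% of those between genes and in 15.3% of the X promoter regions. Neither word was thus particular to the members among strong regions.

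Members at ribosomal protein genes held these words less often than the other members did. Of the 33 members at cytoplasmic ribosomal protein genes, 5 held GAGAGA (15.2%, 5.11 to 31.9) and 0 held CTGCGTC, a count that allows a share of up to 10.6% (exact interval). The 465 other members held these words at 47.3% and 21.3%. Of 36 weaker regions at such genes without a member, 11 held GAGAGA (30.6%, 16.3 to 48.1) and 3 held CTGCGTC (8.33%, 1.75 to 22.5). Both intervals hold the shares of all weaker promoter regions, 18.3% and 4.51%. Fixed windows centred 200 bp upstream held GAGAGA at 3 of 36 ribosomal protein genes with a member and 8 of 42 without. CTGCGTC was in 0 of the 36 and 0 of the 42. All autosomal promoters gave 13.7% and 3.18% for the 2 words. Of the 33 members, 10 held CTGAGTA (30.3%), 12 held GGCCTA (36.4%) and 12 held AACGTT (36.4%), against 0.860%, 3.44% and 5.16% of the other members. These words were picked after the members' sequences had been examined, so the shares describe the members and support nothing further. In a fixed window 200 bp upstream of the gene, GGCCTA was about as frequent at ribosomal protein genes without a member (10 of 42) as at those with one (7 of 36). CTGAGTA was found there in 7 of the 36 genes with a member and in 1 of the 42 without, and AACGTT in 11 and 2. At genes with a member these fixed windows overlap many of the sequences from which the words were picked. An excess there is thus partly built in and is no separate check.

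TACACT was held by 7 of the 20 members of highest signal (15.4 to 59.2) and by 8.79% of the other members, where all autosomal promoters gave 7.44%. The 20 were taken by the signal that chose the members, and the word was chosen with earlier results of these data known. That contrast is therefore only a description. TACACT was in 5 of the 33 members at ribosomal protein genes (15.2%, 5.11 to 31.9) and in 9.46% of members at other genes. CGCTCCA was held by 8 of the 33 ribosomal protein members (24.2%), by 16 of 114 divergent members at other genes and by 4.59% of 1-gene members at other genes. Weaker divergent promoter regions held it at 4.58%. AGCGCG was held by 18.1% of members and 4.08% of weaker promoter regions. AT-rich words were less frequent in members than in weaker promoter regions, with TATAAA at 11.8% against 20.9% and TGATAA, which holds a GATA core, at 9.24% against 19.1%. The median GC content of the members' windows was 43.8%, against 36.8% in weaker promoter regions and 33.3% in all autosomal promoters, and its part in these shares was not tested.

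The strongest member lay at cdc-48.1, the gene for a p97-type ATPase that pulls ubiquitinated proteins out of complexes. Its summit was 163 bp upstream of the gene (WBGene00007352), and its signal was 36.9 in replicate 1, 44.9 in replicate 2, 44.8 in replicate 3 and 129 in the pooled list. It ranked 7, 8 and 4 in the 3 replicate lists. The divergent window of rpl-20, a protein of the large ribosomal subunit, and Y17G9B.5 had signals of 37.0, 28.4 and 29.3 in replicates 1 to 3. That of rpl-15, another large subunit protein, and K11H12.8 had 24.1, 40.8 and 25.4. Replicate 1 was the highest of the 3 at the first window and the lowest at the second. Signal was not rescaled between the lists, whose medians over all their regions were 3.44, 5.21 and 3.18 in replicates 1 to 3. Differences between replicates, here and below, are therefore only descriptions of the deposited values.

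**Figure D1:**
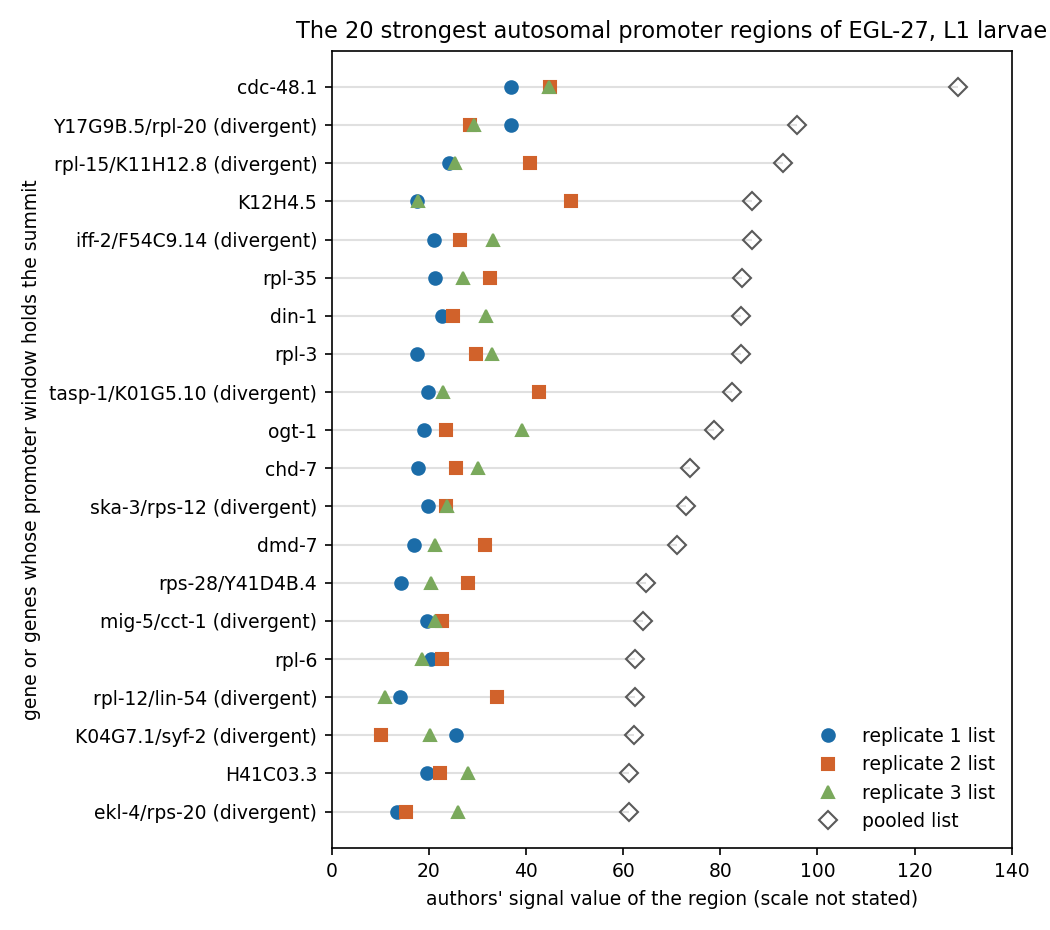
Authors' signal value (x axis, scale not stated) of the 20 strongest members (y axis, by gene) in each replicate list (filled symbols) and in the pooled list (open diamonds). The replicate values lie below the pooled value at every member, from 10.1 to 49.3, and their order differs from member to member.

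Among all members, 12 were among the 100 highest regions of every replicate. Besides the 3 above they lay at rpl-35 and rpl-3, large subunit proteins, at iff-2 with F54C9.14, at din-1, at tasp-1 with K01G5.10, at ogt-1, at chd-7, at ska-3 with rps-12, and at dmd-7. The iff-2 gene encodes the translation factor eIF5A, and its window gave 21.1, 26.5 and 33.2 in replicates 1 to 3. The din-1 gene encodes a corepressor partner of the DAF-12 steroid receptor, and its region, 755 bp upstream, gave 22.7, 25 and 31.8. At ogt-1, which encodes the O-GlcNAc transferase, the values were 18.9, 23.6 and 39.1, so replicate 3 was above the other 2. The dmd-7 gene encodes a DM-domain transcription factor, a family known for roles in sex differences, and its values were 16.9, 31.6 and 21.3.

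In some members of the 20 highest 1 replicate stood apart from the other 2. The K12H4.5 region had 17.5 in replicate 1, 49.3 in replicate 2 and 17.8 in replicate 3. The window shared by rpl-12 and lin-54, the DNA-binding subunit of the DREAM repressor complex, had 14.1, 34.0 and 10.9. That of syf-2, a splicing factor gene, and K04G7.1 had 25.5, 10.1 and 20.2, with replicate 2 the lowest. In the window of mig-5, a Dishevelled gene of the Wnt pathway, and cct-1, a subunit of the TRiC chaperonin, the values were 19.7, 22.8 and 21.2 and lay close together. Also among the 20 highest were the regions at rpl-6, for a large subunit protein, at rps-28, for a small subunit protein, with Y41D4B.4 on the same strand, at H41C03.3, and between ekl-4 and rps-20, with values between 13.4 and 28.1.

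Every member was present in at least 1 replicate list, and the pooled list is no independent check of this, since it came from the same reads. The summit lay inside a region of all 3 lists for 371 members (74.5%, 70.4 to 78.3), against 71.3% of the 1500 highest regions as a whole. It lay in 2 lists for 109 and in 1 list for 18. Members ranked among the 1500 highest of replicate 1 at 49.2%, of replicate 2 at 46.6% and of replicate 3 at 62.2%, where the whole set of 1500 gave 47.1%, 50.5% and 61.1%. In 20.7% of members the region was among the 1500 highest of all 3 (background 19.7%), with a median pooled signal of 41.8, and 59 members were among them in none. The members' presence in the replicates was thus near that of strong regions in general. Median signal of the members was 8.08, 10.4 and 9.02 in replicates 1 to 3. Over the 371 members in every list, signal in replicates 1 and 2 had a Spearman correlation of 0.31, in 1 and 3 of 0.33 and in 2 and 3 of 0.32, a description across regions that share their libraries. Replicate summits lay a median of 20, 20 and 21.5 bp from the pooled summit.

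The members' pooled signal ran from 18.7 to 129, with a median of 25.3 and quartiles of 21.5 and 33.8. In the authors' thresholded list, made with the irreproducible discovery rate (IDR), were 186 members (37.3%), against 34.9% of the 1500 highest regions, and the lowest signal in that list is 28.9. The deposited −log10 q-value was at its maximum, 3.17, for 261 members and 2.19 at the lowest. The last members inside the rank limit were at unc-73 (rank 1500, signal 18.7), at snr-2 with W08E3.4 (18.7), and at dlc-5, C06G4.4 and gdh-1 (18.8 each). The first promoter regions outside it were at ehs-1 (rank 1506, 18.7), at eef-1G with ctf-4 (18.7), and at ZK6.8, at Y75B8A.31 with pph-4.1 and at ogdh-2 (18.6 each), so the limit falls within a continuous range.

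Summits clustered just upstream of gene starts. Of the 498, 463 lay upstream of the nearest start (93.0%, 90.4 to 95.1), at a median of 234 bp. The stretch from 300 to 101 bp upstream held 193 members (38.8%, 34.5 to 43.2), against 22.5% of weaker autosomal promoter regions. From 0 to 200 bp downstream lay 7.03% of members and 18.8% of weaker regions. By the annotation 430 summits were between genes (86.3%), 28 in introns, 25 in 5′ UTRs, 12 in coding exons and 3 in 3′ UTRs. Coding exons held 2.41% of members and 19.8% of weaker promoter regions.

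**Figure D2:**
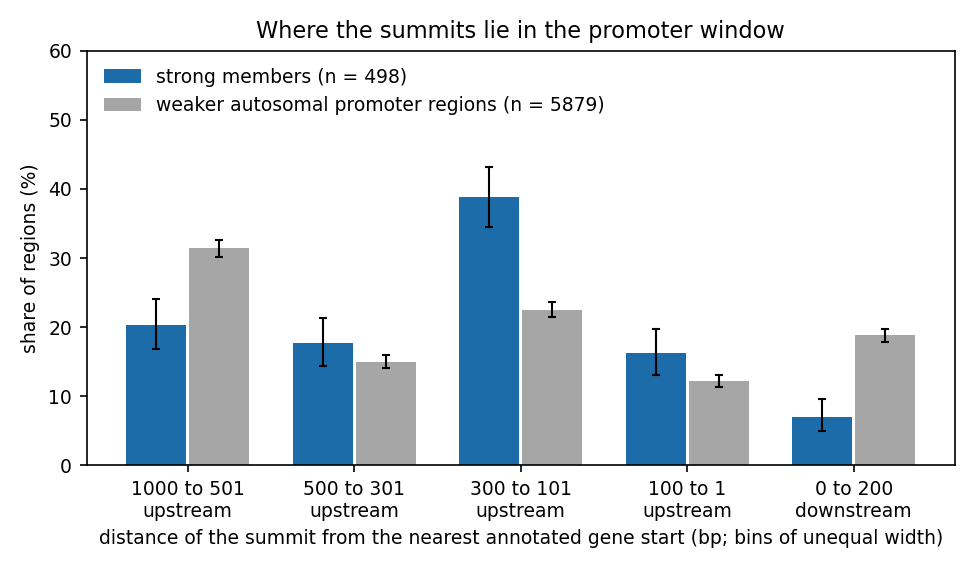
Share of regions (y axis, %) by distance of the summit from the nearest annotated gene start (x axis, bp, bins of unequal width) for the 498 members and the 5879 weaker autosomal promoter regions, with exact 95% binomial intervals. Members exceed weaker regions most between 300 and 101 bp upstream (38.8% and 22.5%) and fall below them downstream of the start (7.03% and 18.8%). Divergent windows, more frequent among members, are placed by the nearer start.

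Divergent windows, in which the summit is in the promoter windows of 2 genes transcribed away from each other, were frequent. One gene was in reach of 334 members (67.1%, 62.7 to 71.2), a divergent pair of 135 (27.1%, 23.2 to 31.2), 2 genes of the same strand of 16 (3.21%) and 3 or more genes of 13 (2.61%). Among weaker autosomal promoter regions 765 of 5879 were divergent, and among strong promoter regions on the X chromosome 8 of 144 (5.56%). Of the autosomal bases inside any promoter window, 11.5% lay in exactly 2 windows of any orientation. The starts of the 135 pairs were a median of 564 bp apart, against 658 bp for all 2382 neighbouring divergent pairs up to 2000 bp apart. In widely spaced pairs the window rule leaves only a short stretch in reach of both starts. The 2 medians are therefore not on like terms. The summit lay between the starts in 121 pairs (89.6%), a median of 166 bp from the nearer start and 391 bp from the farther one over all 135.

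The 10 divergent windows of highest signal included 5 with a ribosomal protein gene on one side. Besides the windows of rpl-20, rpl-15, iff-2, tasp-1, ska-3, mig-5, rpl-12 and syf-2 already described, they were those of ekl-4 with rps-20 and of tag-340 with nhl-2. The ska-3 gene encodes a kinetochore protein and lies 122 bp from a summit that is 171 bp from rps-12, a small ribosomal subunit protein, and the window gave 19.8, 23.6 and 23.7 in replicates 1 to 3. The ekl-4 gene encodes a relative of the DMAP1 protein, and its window with rps-20 gave 13.4, 15.3 and 25.9. The nhl-2 gene encodes a TRIM-NHL protein that acts with microRNAs, and its window gave 8.11, 20.3 and 28.8, so replicate 1 was far below the others. A functional pair was found at rank 172, where the summit lay between the mitochondrial chaperonin gene hsp-60 and Y22D7AL.10, annotated as its 10 kDa partner, with 3.77, 19.8 and 18.8.

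The signal of divergent and 1-gene members is given as a description, since the pooled signal chose them. Among members in all 3 lists, the median signal of 98 divergent and 251 1-gene members was 8.56 and 7.66 in replicate 1, 10.2 and 10.4 in replicate 2, and 9.87 and 8.41 in replicate 3, so the order was not the same in every replicate. GAGAGA was held by 51.5% of 1-gene and 31.9% of divergent members (41 of 114 without ribosomal protein genes). In the 172 1-gene members that held it, the word lay on the gene's strand alone in 55, on the other strand alone in 96 and on both in 21.

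**Figure D3:**
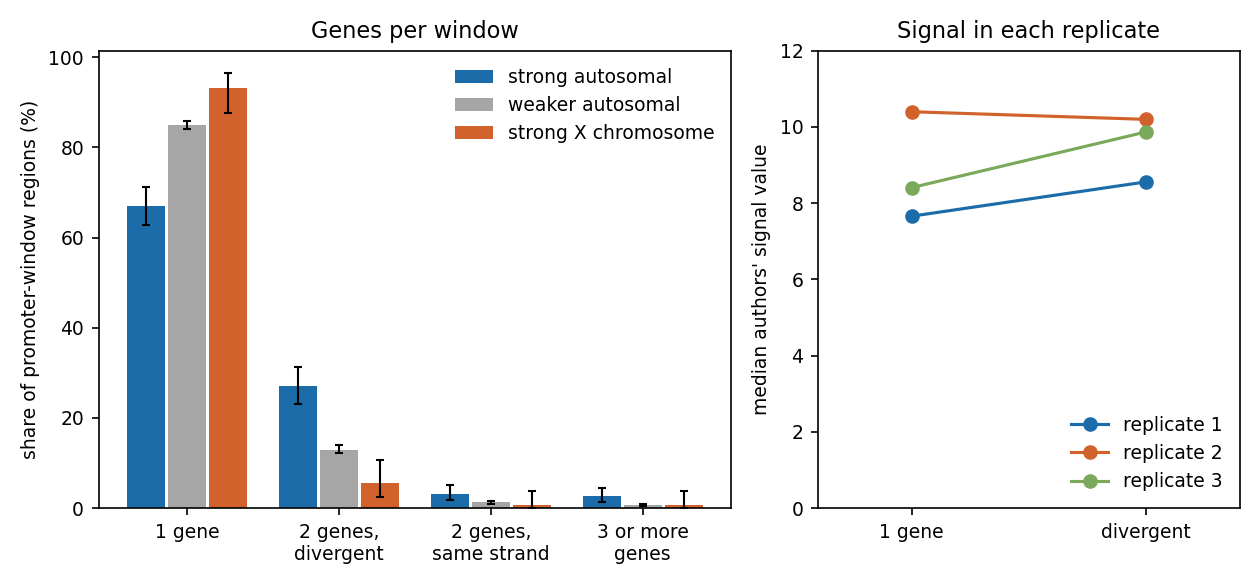
Left, share of promoter-window regions (y axis, %) by the genes in reach of the summit (x axis) for strong autosomal, weaker autosomal and strong X regions, with exact 95% binomial intervals. Right, median authors' signal value of 251 members with 1 gene and 98 divergent members in each replicate; divergent members are higher in replicates 1 and 3 and slightly lower in replicate 2 (10.2 and 10.4).

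The members reached 665 genes, 3.86% of the 17242 protein-coding genes on the autosomes. Of the 665, 199 (29.9%) belong to 1 or more of 33 gene groups matched by symbol, and the others were not classified. The groups were chosen with earlier results of these data known, so each is given as a count beside the 3.86% and is not tested. A region in reach of genes from several groups is counted in each, so the groups are not separate sets of regions. Of 78 autosomal genes for cytoplasmic ribosomal proteins, 36 had a member (46.2%, 34.8 to 57.8), from 33 regions, and 28 more had only a weaker region. Their summits lay a median of 272 bp upstream of the ribosomal protein gene (quartiles 244 and 347), and 21 of the 33 regions were divergent. The small and large subunits were both represented. The summits of 3 regions lay in the promoter windows of 2 ribosomal protein genes each: rps-14 with rpl-36 (signal 41.3), rpl-24.1 with rps-10 (21.9) and rpl-39 with rps-30 (19.2). Translation factors had members at 9 of 41 genes, led by iff-2, by the translational repressor gene ifet-1 (56.2) that shares its window with rps-1, by the elongation factor gene eef-2 (51.7) and by eif-3.C (37.5). Mitochondrial ribosomal protein genes had them at 9 of 66 (13.6%), led by mrpl-23 (46), mrps-7 (37.6), mrpl-55 (35.4) and mrps-21 (30.8). Aminoacyl-tRNA synthetases, which charge tRNAs, had 1 of 32 (3.12%), ears-2 (43.1).

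**Figure D4:**
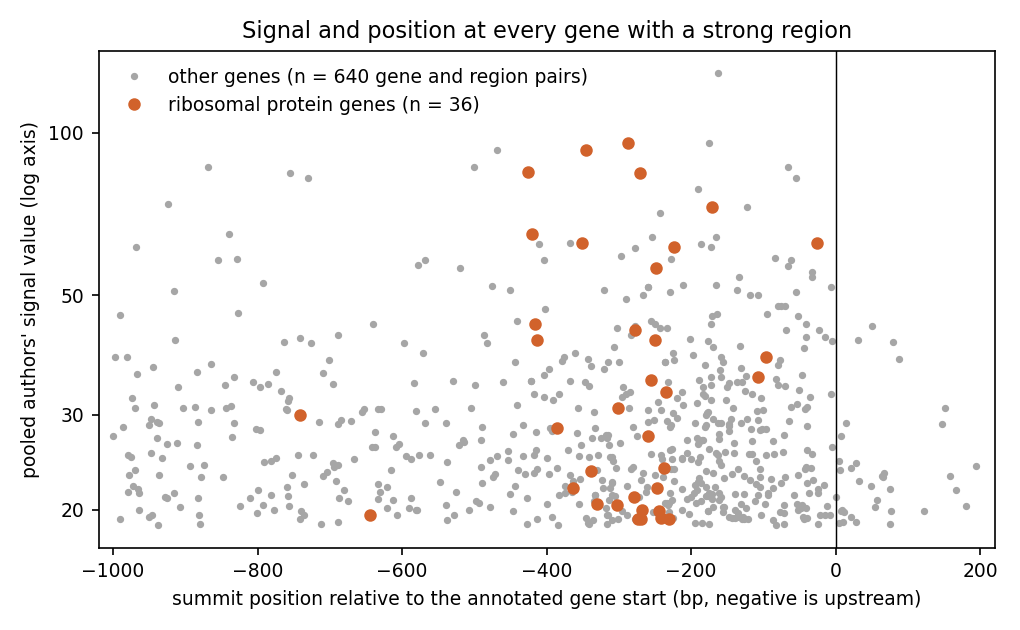
Pooled authors' signal value (y axis, log axis) against the position of the summit relative to the annotated start (x axis, bp, negative is upstream) for 36 ribosomal protein genes and 640 other pairs of a gene and a member. Ribosomal protein genes have quartiles of 244 and 347 bp upstream, at signals from 19.2 to 95.7.

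Groups of protein folding, degradation and traffic gave shares from 8.33% to 22.2%. Chaperone genes had members at 13 of 63 (20.6%, 11.5 to 32.7), led by cct-1 (64.1), the constitutive HSP70 gene hsp-1 (47.1), hsp-60 (44.1) and the HSP70 cofactor gene bag-1 (41.1). The hsp-1 region gave 13.3, 9.62 and 18 in replicates 1 to 3. Proteasome genes had members at 3 of 31 (2.04 to 25.8), namely rpn-3, pas-5 and pbs-2 (33.7, 22.1 and 21.3). The rpn-3 region was also counted for a chaperone gene and the pbs-2 region for a translation factor gene. The ubiquitin and CDC-48 pathway had 5 of 60 (8.33%, 2.76 to 18.4): cdc-48.1, ubl-1, ubc-25, ubc-6 and ubc-3. The intervals of the proteasome and ubiquitin groups both hold 3.86%. Of 18 vacuolar ATPase genes, whose proton pump acidifies organelles, 4 had a member (22.2%, 6.41 to 47.6), vha-8 (51.1), vha-13 (30.5), vha-1 (25.1) and vha-9 (20.6). The vha-8 window gave 7.84, 25.5 and 16.8, with replicate 1 the lowest. Vesicle traffic genes had 10 of 113, led by the Sec61 translocon gene sec-61.G (58.3), the ESCRT genes vps-60 (39.1) and vps-36 (36.8), and rab-7 (33.8).

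Chromatin regulators, the class to which EGL-27 itself belongs, had members at 19 of 109 genes (17.4%, 10.8 to 25.9). The highest were chd-7 (73.7), a chromodomain helicase gene, set-4 (43.4), for the H4K20 methyltransferase of the Suv4-20 family, the SET-domain gene set-21 (38.3), which shares its window with rpl-7A, and swsn-3 (34.9), for a SWI/SNF subunit. The set-4 region gave 3.75, 17.9 and 16 in replicates 1 to 3, far lower in replicate 1. Others were met-1 (32.7), for an H3K36 methyltransferase, cbp-1 (26.3), for the CBP and p300 acetyltransferase, and 3 genes tied to NuRD and related complexes, lin-53 (24.8), mep-1 (19.6) and egl-27. The egl-27 region lay 926 bp upstream with 11.5, 15.1 and 11.8 in replicates 1 to 3 and 26.5 in the pooled list, and 3 members lay within 20 kb of egl-27, where reads from the transgene and from the native locus cannot be told apart. Histone genes had 5 of 76 (6.58%), led by his-37 for histone H4 (58.5) and the H2A.Z gene htz-1 (40), with his-68 and his-67 in 1 window (34.5).

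Metabolic, structural, cell division, splicing and signalling groups gave shares from 12.5% down to 2.63%. Mitochondrial respiration genes had members at 5 of 41 (12.2%), led by the cytochrome oxidase genes cox-5A (42.1) and cox-5B (41.8), the ADP/ATP carrier gene ant-1.1 (34.0) and the ATP synthase gene atp-1 (32.7). Carbohydrate and energy enzymes had 5 of 40, led by ogt-1, the trehalase gene tre-1 (32.4), idh-1 (22.7) and aco-2 (22.6), both for enzymes acting on citrate or isocitrate. Cytoskeleton genes had 8 of 76, led by the actin capping gene cap-2 (43.5), the tubulin gene tba-2 (36.3), unc-60 (34.7), for actin depolymerising factors, and the tubulin gene tbb-2 (29.3). Cell cycle genes had 8 of 86 (9.30%), led by zyg-11 (35.8), pcn-1 (32.7) for the replication clamp PCNA, emb-1 (30.7) for a subunit of the anaphase-promoting complex, and lin-23 (29.5). Splicing genes had 7 of 77, led by prp-19 (30.7), the Sm protein genes snr-1 (28.7) and snr-4 (27.1), and hrpa-1 (24.6). The prp-19 region, 633 bp upstream, is also the emb-1 region, 761 bp upstream of that gene. Detoxification genes had 6 of 113, led by cyp-13A2 (41.1) and the glutathione transferase genes gst-27 (38.1), gst-5 (30.5) and gst-20 (22.4). Lipid genes had 6 of 128 (4.69%), led by cept-2 (27.1), ech-2 (25.2), acs-4 (21.8) and pmt-2 (20.8). Signalling kinases and phosphatases had 2 of 76, wts-1 (28.2) and kgb-1 (20.7).

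Groups of transcription factors and developmental regulators gave shares from 0 to 7.14%, and the small heterochronic group 16.7%. Nuclear hormone receptor genes had members at 13 of 247 (5.26%, 2.83 to 8.83), led by nhr-58 (58.2), nhr-68 (35.6), nhr-112 (31.2) and nhr-57 (29.6). Homeobox genes had 3 of 69, ceh-38 (43.9), the PBX gene ceh-20 (28.9) and the posterior Hox gene nob-1 (25.2). Heterochronic and molting genes, which time larval events, had 3 of 18 (16.7%, 3.58 to 41.4), an interval that holds the 3.86% of all autosomal genes. The 3 were alg-5 (34.5), lin-66 (25.7) and lin-28 (24.7). The alg-5 region, 807 bp upstream of that gene, was also counted for the histone genes his-68 and his-67. Zinc finger and other factor genes had 4 of 95 (4.21%), daf-16, zip-11 (23.1), ztf-7 (21.9) and ztf-27 (20.6). The basic helix-loop-helix genes hlh-11 (44.7) and aha-1 (23.7) were 2 of 28. In the insulin and dauer pathway 1 of 65 genes had a member, the FOXO gene daf-16 (37.5), and in the Wnt group 1 of 25, mig-5. GATA factors had 0 of 7, which allows a share of up to 41.0%.

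Chemoreceptor, C-type lectin, F-box and collagen genes, all large families, gave shares under 3.86%, and the interval for collagens reached past it. Chemoreceptor genes had 1 of 1238 (0.0808%, 0.00205 to 0.449), sre-23 at 26.1, with 6.63, 5.02 and 8.34 in replicates 1 to 3. C-type lectins had 0 of 237, which allows up to 1.54%, neuropeptide genes 0 of 70 (up to 5.13%, an interval that holds 3.86%) and F-box genes 3 of 307 (0.977%), fbxb-85 (46.2), which shares its divergent window with hex-3, fbxa-90 (21.5) and fbxc-44 (20.5). Collagen and cuticle genes had 3 of 182 (1.65%, 0.341 to 4.74), col-160 and col-159 in 1 window (21.4) and dpy-10 (19.9). Ion channels and transporters had 5 of 159 (3.14%, 1.03 to 7.19), near the share of all genes, led by the sodium pump gene eat-6 (33.2), haf-3 (30.2), aqp-2 (28.3) and mca-2 (22). Weaker regions alone, which can be background, were found at 317 of the chemoreceptor genes and at 70 of the C-type lectins.

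**Figure D5:**
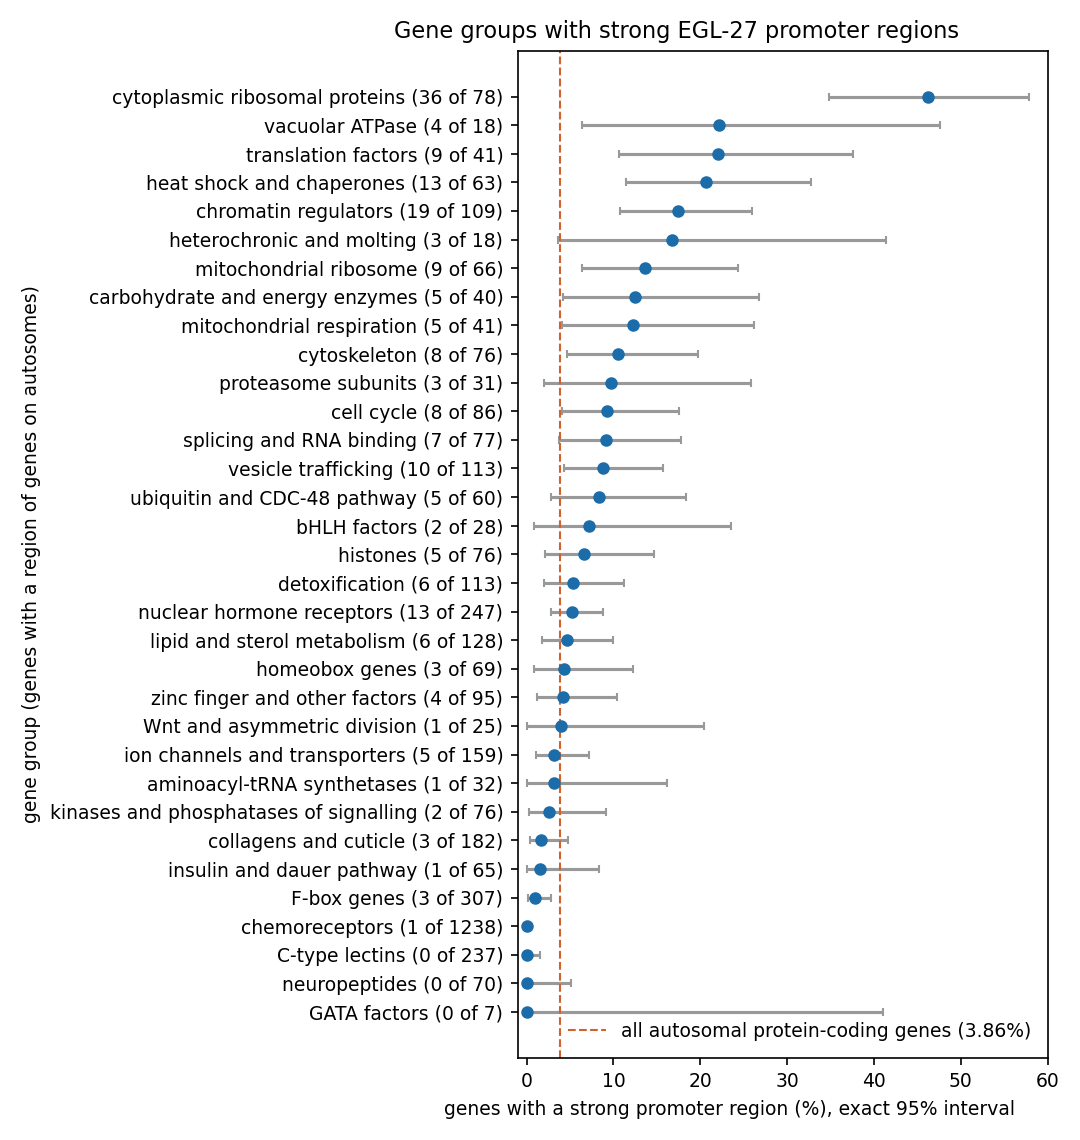
Share of the autosomal genes of each group (y axis) with a member in their promoter window (x axis, %), with exact 95% binomial intervals, beside the share of all autosomal protein-coding genes (dashed line, 3.86%). Ribosomal protein genes stand at 46.2%, and chemoreceptors (0.0808%) and C-type lectins (0 of 237) at the bottom.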

How the data were processed

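EGL-27 ChIP-seq region lists of 3 biological replicates, 1 group, were analysed as deposited on ce11. The authors made a relaxed list per replicate and 1 for the replicates together, as input to IDR, and 1 thresholded IDR list, per the labels and file names. For aligner and peak caller, names were not given in the sources used here. Signal, a deposited value of the authors on an unstated scale, served for ranks and descriptions and was not rescaled between lists. The deposited −log10 q-value was only described. The deposited summit offset placed each region. Genes came from Ensembl release 115 and sequences and product names from RefSeq, both of WBcel235, the same assembly as ce11.

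A region counted as present in a replicate where the pooled summit lay inside one of its regions. Words were searched on both strands in 201 bp windows. Intervals are exact 95% binomial intervals over regions or genes and cover only their counting. A planned sign-flip test of divergent against 1-gene signal is not reported, because signal chose the members; the functions were checked on simulated data. Named genes were those of the 20 highest members, the 4 highest of each gene group (all in groups under 3), both genes of the 10 highest divergent windows, genes with 2 members, members nearest the rank limit and members in the highest 100 of every replicate; genes named beyond this rule (met-1, cbp-1, lin-53, mep-1, egl-27, rps-14, rps-1, rpl-36, rpl-24.1, rps-10, rpl-39, rps-30, Y22D7AL.10, hex-3, ubc-3, rpl-7A) were chosen after their values were seen. The members, gene groups and words were chosen with earlier results of these data known. Groups match genes by symbol, so unnamed family members are missed. Alternatives were other windows, rank limits, positions, word windows, matches and sets of replicates. Python 3.11.15, numpy 2.4.6, pandas 2.3.3, scipy 1.17.1 and matplotlib 3.10.9 were used.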

Additional observations from a re-analysis of the deposited data

How the results depend on the processing

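No paired analysis was possible because there is 1 group. No result reversed. The rank limit set the number of members by construction: it was 186 with as many regions as the thresholded IDR list holds and 921 with the highest 3000. In the former 96.8% of summits lay upstream, 94.1% were in all replicate lists and 20 ribosomal protein genes had a member. Presence in all replicate lists was 83.5% with the highest 1000 regions, 51.1% with the highest 3000, where GAGAGA fell to 39.6%, and 80.9% when any overlap of 1 bp counted. GAGAGA was in 29.5% of windows of 50 bp either side, which hold fewer bases. Members without replicate 1, 2 or 3 are those among the 1500 highest regions of both other replicates: 131 to 161 members, 93.8% to 96.2% upstream, 90.6% to 94.7% in all lists and 15 to 20 ribosomal protein genes. The sets are smaller, and IDR and the pooled list were not made again. Without the members within 20 kb of egl-27 (495 left) or within 500 bp of short noncoding RNA genes (462 left), alternatives added after seeing the data, every share stayed within the interval of the full set, and 36 and 31 ribosomal protein genes had a member. Of the 79 alternative values computed, 58 were labelled as unchanged. For shares this meant within that interval, and for counts within 1.5 times the count. The 58 include alternatives of the signal test that is not reported, to which neither measure applies. Unknown depth limits every list, and weaker binding below a list's end is not seen.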

Other observations

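In all, 11 genes had 2 members each. The 2 regions of ogt-1 lay 191 and 947 bp upstream (pooled signal 78.7 and 25.5), those of egg-5, for an inactive tyrosine phosphatase, 578 and 791 bp upstream (56.8 and 24.5), and those of the dynein intermediate chain gene dyci-1 837 and 61 bp upstream (31.1 and 31.0). The forkhead-domain gene C34B4.2 had them at 297 and 87 bp (59.2 and 21.9), the splicing helicase gene mog-4 at 200 and 400 bp (24.8 and 20.5). The divergent pair atx-2, for an ataxin-2 relative, and ecps-1 shared both of its regions (21.3 and 20.9). The others were mig-38, F26D11.1, R06C1.4 and T07F10.3.

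Genes with a member were more often followed than preceded by a close neighbour on the same strand. Another gene started within 500 bp after the end of 29.6% of them (26.2 to 33.3), against 19.1% of all autosomal genes, and one ended within 500 bp before the start of 10.7% (8.43 to 13.3), against 19.1%. Operons were not identified here, and the differences were not tested. Of the member genes 72.5% had a genetic name, against 55.4% of all autosomal genes.

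Chromosome V held 20.3% of members and 29.0% of autosomal genes, and the arms (the outer 25% at each end of a chromosome) held 35.5% of members and 44.3% of gene starts. In all, 36 members (7.23%, 5.11 to 9.87) lay within 500 bp of a short noncoding RNA gene. Of these, 19 were near snoRNA, 10 near snRNA, 5 near tRNA and 3 near microRNA genes. No share of other promoter regions is given beside these counts, so they are not read as a trait of the members. The E-box CACGTG was held by 8.84% of the 249 members of higher signal (5.62 to 13.1). Of the 249 of lower signal, 2.41% held it (0.889 to 5.17). For CCGCCC the shares were 11.6% (7.94 to 16.3) and 16.9% (12.4 to 22.1), and for GAGAGA 45.8% and 44.6%. This split uses the pooled signal that chose the members, so these shares are only descriptions and were not tested. Over all members CACGTG was at 5.62% and CCGCCC at 14.3%, against 4.59% and 5.78% of weaker autosomal promoter regions. Strong regions in introns, between genes and at X promoters held CACGTG at 8.96%, 6.65% and 9.72%. They held CCGCCC at 10.4%, 11.1% and 9.72%.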
